A study of Mus musculus with 20 samples.

Results

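Decorin (Dcn), lumican (Lum), the collagen chains Col1a1, Col1a2, Col3a1 and Col8a1, tetranectin (Clec3b), cytoglobin (Cygb) and the receptor Pdgfra are genes used to recognise fibroblasts and the adventitia, the outer layer of a vessel wall. They were taken by gene symbol from a table of read counts over 34255 genes, and all 9 symbols were found. Messenger RNA had been sequenced from kidneys of young adult, male, wild-type (WT) C57BL6/OlaHsd mice that received no treatment. Arterioles, glomeruli, peritubular capillaries (PTC) and post-capillary venules (PCV) of the renal cortex were cut out with a laser. They were taken from frozen sections according to their histological appearance. Whole kidney from unselected sections, not limited to the cortex, served as the reference. Each of the 5 groups held 4 libraries, labelled as biological replicates, which are named here by the numbers 93, 96, 98 and 100 of their count columns. The study's methods describe dissecting the compartments from slides of each mouse, so groups can share mice. The main fits treated all libraries as independent. A microdissected piece holds the whole wall of the vessel and whatever lies against it, so no cell type was isolated. Whole kidney libraries also differed from the microdissected ones in RNA input and in the number of PCR cycles, and these cannot be told apart from the dissection itself.

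Fibroblasts build the interstitial matrix of the kidney cortex. In the healthy cortex they are sparse between the tubules and denser in the adventitia around arteries and veins. Type I collagen is assembled from the Col1a1 and Col1a2 chains and forms fibrils together with type III collagen, whose chain is Col3a1. Decorin and lumican are small leucine-rich proteoglycans that bind to these fibrils and regulate their thickness. Type VIII collagen, of which Col8a1 is a chain, is a short network-forming collagen made by smooth muscle, endothelial and fibroblast-like cells of vessel walls. Pdgfra is a receptor for platelet-derived growth factors on fibroblasts and other mesenchymal cells.

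Libraries held between 4639090 and 12283098 counts, and levels are given as CPM, the counts of a gene per 1000000 counts of a library total scaled by the TMM method. Arterioles and glomeruli carried the markers of their structures. Smooth muscle markers took 2.26% ± 0.48 (SD, n = 4) of the counts in arterioles against 0.0355% ± 0.0025 in whole kidney, and podocyte markers took 0.904% ± 0.078 in glomeruli against 0.0215% ± 0.0018. Endothelial markers took 0.0495% ± 0.0267 in PTC and 0.0726% ± 0.0187 in PCV, against 0.0422% ± 0.0025 in whole kidney. By the test against whole kidney given below, 0 of these 8 markers were higher in PTC and 0 in PCV. That test took 0.0869% of all genes in PTC and 0.203% in PCV, so neither count can be set apart from these shares. The median log2 fold change of the 8 was 0.54 in PTC and 1.13 in PCV, against 0.18 and 0.19 over all genes. Proximal tubule markers took 7.19% ± 0.86 of the counts in PTC, 2.52% ± 0.25 in PCV and 4.09% ± 0.15 in whole kidney.

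As a group, the fibroblast and adventitial genes were highest in arterioles and venules. Together they took 0.324% ± 0.053 (SD, n = 4) of the counts in arterioles and 0.221% ± 0.072 in PCV. The share was 0.0525% ± 0.0070 in glomeruli, 0.0198% ± 0.0097 in PTC and 0.0381% ± 0.0014 in whole kidney. The lowest of the 8 arteriolar and venular libraries, at 0.158%, lay above the highest of the other 12, at 0.0598%. Glomerular libraries, at 0.0443% to 0.0598%, all lay above whole kidney, at 0.0366% to 0.0399%, and PTC libraries all below it. In such bulk samples, more cells of a type and more RNA per cell cannot be told apart.

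**Figure D1:**
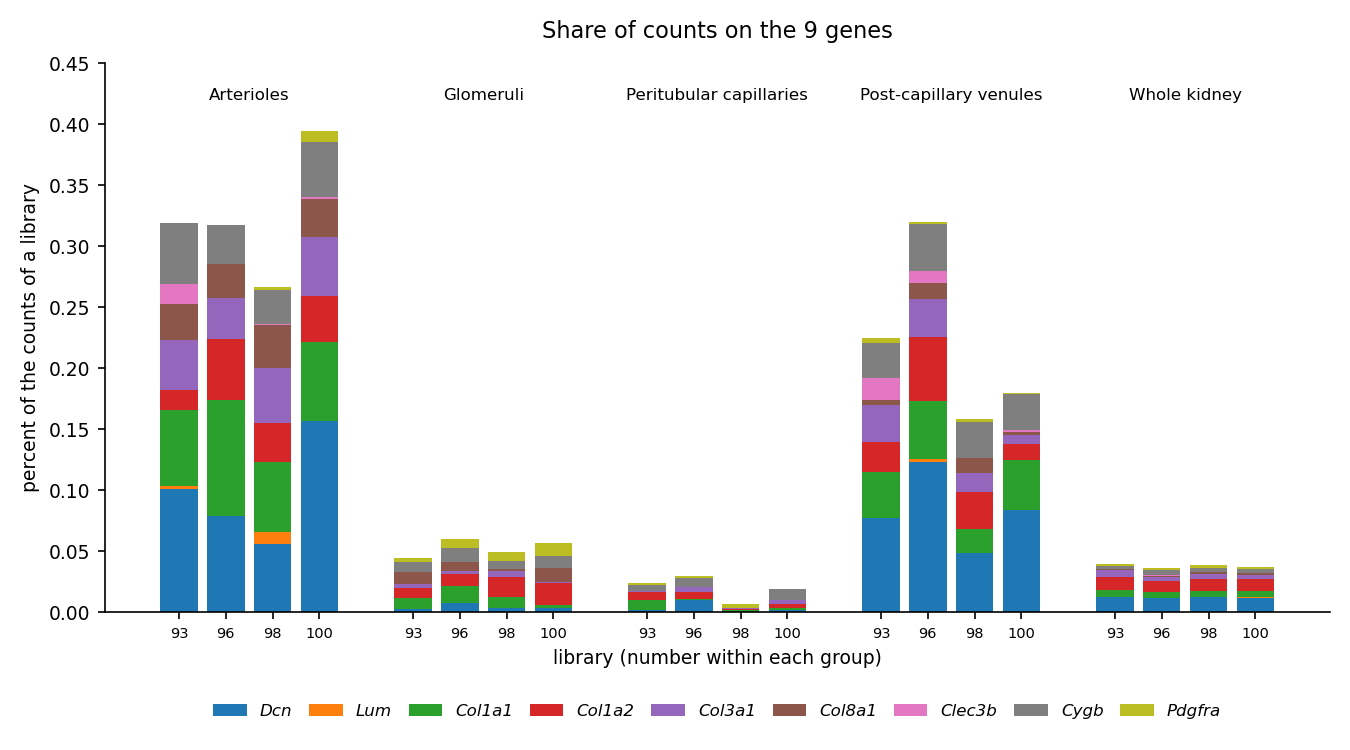
Share of the counts of each library that fell on the 9 genes, in percent, stacked by gene, for 4 libraries of each group. Arterioles span 0.266% to 0.394% and post-capillary venules 0.158% to 0.320%, while glomeruli, peritubular capillaries and whole kidney stay at or below 0.0598%.

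Against whole kidney, 7 of the 9 genes were higher in arterioles, 1 in glomeruli, 0 in PTC and 3 in PCV. A gene counted as higher where edgeR's quasi-likelihood test gave an adjusted p under 0.05 over all 13813 genes tested and the log2 fold change was above 1. Over all genes tested, that rule took 5.78% in arterioles, 1.59% in glomeruli, 0.0869% in PTC and 0.203% in PCV. The share in arterioles and PCV was far above that of all genes, while the count of 0 in PTC cannot be set apart from it. Since the 9 genes were chosen with earlier results of these data known, this is a description. None of the 9 was lower by the mirror rule, which took 5.50% of all genes in arterioles, 1.47% in glomeruli, 0.00724% in PTC and 0.0217% in PCV. At an unadjusted p under 0.05, edgeR put Cygb higher and Dcn, Clec3b and Col8a1 lower in PTC, and Dcn and Lum lower in glomeruli, and none of the 9 lower in arterioles or PCV. DESeq2 called 0 higher and 1 lower in PTC, and 0 lower in the other compartments. The median log2 fold change of the 9 genes was 3.97 in arterioles, 0.29 in glomeruli, -0.80 in PTC and 3.07 in PCV, against medians over all genes of 0.22, 0.25, 0.18 and 0.19.

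**Figure D2:**
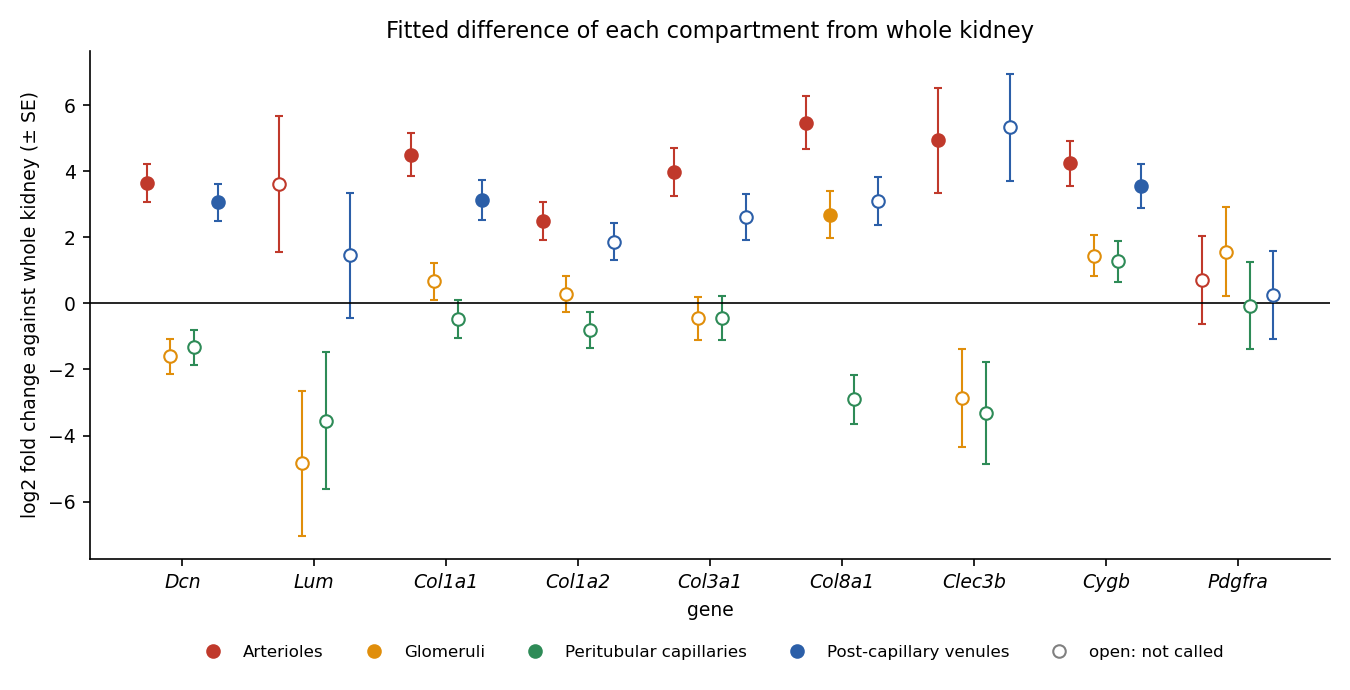
Fitted log2 fold change of each gene against whole kidney with its standard error, by compartment. Filled points passed the test: 7 genes in arterioles, Col8a1 alone in glomeruli and Dcn, Col1a1 and Cygb in post-capillary venules.

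A plainer count looks for groups that do not overlap. All 4 arteriolar libraries lay above all 4 of whole kidney for 6 of the 9 genes, which held for 8.45% of all genes. The same was found in PCV for 6 of the 9 genes, against 5.81% of all genes. Those 6 were the same in both compartments, namely Dcn, Col1a1, Col1a2, Col3a1, Col8a1 and Cygb. In glomeruli, Col8a1 and Cygb lay wholly above whole kidney (2 of 9, background 14.6%), and Dcn, Lum and Clec3b wholly below it (3 of 9, background 18.0%). In PTC, Lum, Col1a2, Col8a1 and Clec3b lay wholly below (4 of 9, background 18.3%).

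Each of the 3 fibrillar collagen chains, Col1a1, Col1a2 and Col3a1, had its highest group mean in arterioles. Col1a1 (chr11:94936224-94953042 on GRCm38, plus strand) measured 817, 1758, 571 and 757 CPM in arterioles 93, 96, 98 and 100. In PCV it measured 384, 501, 167 and 466 CPM. Every arteriolar library thus lay above every venular one. In glomeruli the 4 values were 65.5, 113, 71.0 and 23.6 CPM, and in PTC they were 81.8, 6.64, 13.2 and 22.3 CPM. Whole kidney was almost constant, at 46.4, 43.0, 41.1 and 42.0 CPM, and overlapped with both. Col1a1 rose in arterioles by 4.50 ± 0.65 (log2 fold change ± SE, adjusted p = 5.38e-06), with a mean 22.6 times that of whole kidney. In PCV it rose by 3.14 ± 0.61 (adjusted p = 0.00686), and the call was lost without whole kidney 93 or whole kidney 98, at an adjusted p of up to 0.0572.

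Col1a2 (chr6:4504814-4541544, plus strand), the partner chain, passed the test in arterioles. It measured 214, 912, 316 and 431 CPM in arterioles and 244, 550, 266 and 150 CPM in PCV. These groups overlapped. Whole kidney stood at 86.3, 82.4, 80.5 and 82.2 CPM, below every library of both. Glomeruli, at 58.6, 77.9, 120 and 147 CPM, straddled it, and PTC, at 66.9, 54.6, 16.9 and 51.8 CPM, lay below. The arteriolar rise was 2.50 ± 0.57 (adjusted p = 0.00324), whereas the venular difference of 1.87 ± 0.56 did not pass (adjusted p = 0.225) except with only the 8 libraries compared (adjusted p = 0.00911).

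Col3a1 (chr1:45311538-45349706, plus strand), the only chain of type III collagen, was the most even of the 9 genes within arterioles. Its arteriolar values were 537, 630, 448 and 559 CPM, a spread of 1.41 times between the extremes. In PCV they fell into a pair near 310 and 326 CPM (libraries 93 and 96) and a pair at 130 and 82.8 CPM (98 and 100), all below arterioles. Glomeruli held 27.2, 23.2, 40.0 and 10.6 CPM, PTC 4.72, 41.0, 3.03 and 53.4 CPM, and whole kidney 45.1, 27.3, 35.5 and 30.9 CPM. These 3 groups overlapped. Col3a1 rose in arterioles by 3.97 ± 0.73 (adjusted p = 0.000278). In PCV the difference of 2.61 ± 0.69 missed the threshold with an adjusted p of 0.138, although no venular library overlapped with whole kidney, and it passed without the count filter, with DESeq2 and with only the 8 libraries compared.

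**Figure D3:**
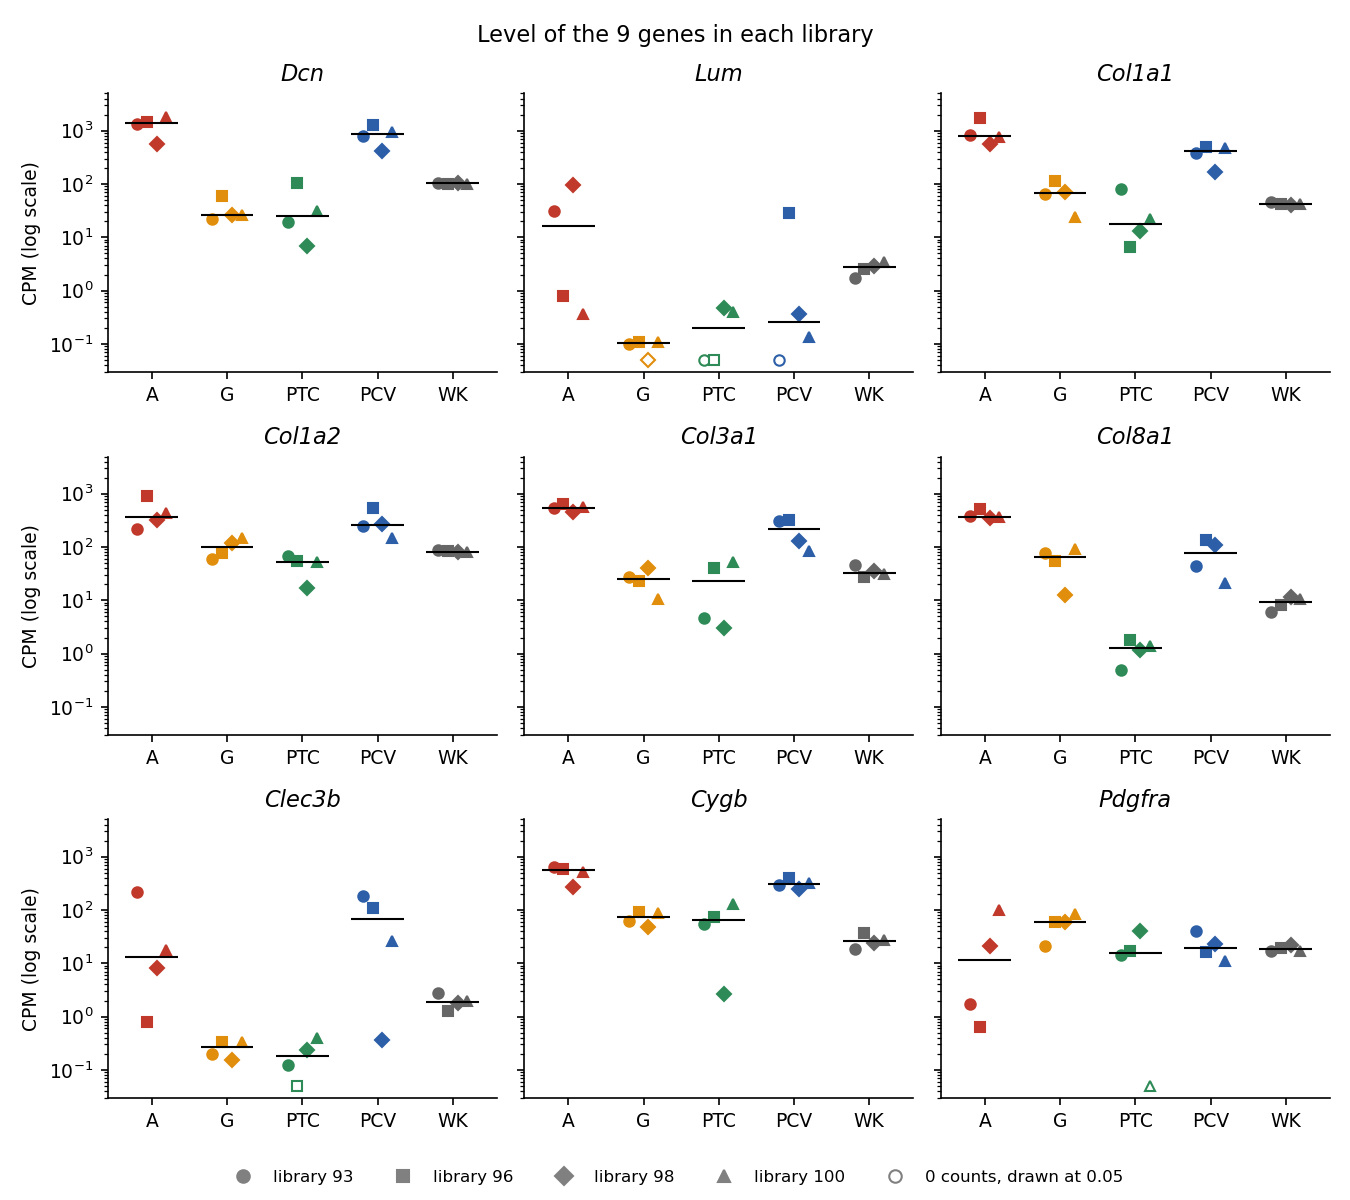
CPM of each gene in each of the 20 libraries on a log axis, for arterioles (A), glomeruli (G), peritubular capillaries (PTC), post-capillary venules (PCV) and whole kidney (WK). Lines mark the median of 4 libraries, symbols the library number, and open symbols 0 counts. Arterioles and venules sit above whole kidney for 6 genes, Lum and Clec3b spread over 273 and 266 times within arterioles, and Pdgfra shows no such order.

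Upstream sequence is shown for 3 of the 4 collagen chains that rose in arterioles, Col1a2, Col3a1 and Col8a1, and for Pdgfra, which did not pass, since these 4 of the 9 genes had an entry in the RefSeq promoter table (GRCm38.p6). Each window is the 120 bases before the RefSeq start, or before a GENCODE exon that begins shortly upstream of it. A window can thus end upstream of the RefSeq start. Windows were searched on both strands for 3 motifs, and matches are in capitals. The GC box has the letters GGGCGG and reads CCGCCC where it lies on the opposite strand. The CCAAT box is named for its letters and reads ATTGG on the opposite strand, and the letters TATAA read TTATA there. The Col1a2 window lies inside the span of a longer transcript model, where it overlaps no annotated exon.
Col1a2, chr6:4505373-4505492, plus strand: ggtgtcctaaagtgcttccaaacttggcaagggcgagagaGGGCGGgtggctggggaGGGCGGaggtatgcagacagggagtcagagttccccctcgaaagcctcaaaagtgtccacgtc
Col3a1, chr1:45311418-45311537, plus strand: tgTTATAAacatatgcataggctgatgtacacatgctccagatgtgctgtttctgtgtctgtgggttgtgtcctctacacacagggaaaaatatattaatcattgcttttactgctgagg
Col8a1, chr16:57754738-57754857, minus strand: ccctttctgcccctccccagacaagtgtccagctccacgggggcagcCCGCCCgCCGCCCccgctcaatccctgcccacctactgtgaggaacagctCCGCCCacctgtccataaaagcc
Pdgfra, chr5:75152131-75152250, plus strand: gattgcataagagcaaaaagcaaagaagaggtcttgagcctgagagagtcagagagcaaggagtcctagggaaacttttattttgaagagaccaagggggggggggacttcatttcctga

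The GC box occurred 2 times in the Col1a2 window and 3 times in the Col8a1 window. Positions are counted back from the base that follows the window. The first bases lay at 80 and 63 in Col1a2 and at 73, 66 and 23 in Col8a1. The Col3a1 window held TTATA and TATAA, which overlap each other, at 118 and 117 bases. None of the 3 motifs was found in the Pdgfra window, and CCAAT in none of the 4. Among 32851 promoter windows of the same length, 26.5% held a GC box, 21.3% a CCAAT box and 11.8% TATAA. Those windows were all taken directly before the RefSeq start. No motif was common to the 3 collagen windows.

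Col8a1 (chr16:57624258-57754737, minus strand), the type VIII collagen chain, was highest in arterioles and lowest in PTC. It measured 380, 514, 349 and 362 CPM in arterioles, 75.8, 55.0, 12.6 and 90.0 CPM in glomeruli and 43.5, 136, 109 and 21.2 CPM in PCV. Whole kidney held 5.97, 8.29, 11.3 and 10.6 CPM. PTC held 0.497, 1.77, 1.17 and 1.37 CPM, from 4, 12, 10 and 7 counts. Arterioles lay above all other groups without overlap, PTC below all others, and glomeruli and PCV overlapped between them. The rise over whole kidney was 5.47 ± 0.81 in arterioles (adjusted p = 8.52e-06), 44.4 times by the group means. In glomeruli it was 2.69 ± 0.71 (adjusted p = 0.0255), which made Col8a1 the only one of the 9 to pass there. That glomerular call was lost, at adjusted p-values of 0.0565 to 0.118, without glomerular 93, 96 or 100 or without any one of the 4 whole kidney libraries, and also without the count filter. The venular difference of 3.09 ± 0.72 narrowly missed (adjusted p = 0.0514) and passed without venule 100 (adjusted p = 0.0296), the lowest of its group, with DESeq2's test (adjusted p = 0.000566) and with only the 8 libraries compared (adjusted p = 0.0105). In PTC the value was -2.91 ± 0.74 (adjusted p = 0.136), and DESeq2's test called it lower (adjusted p = 0.00327).

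Decorin mRNA was high in arterioles and venules and low in glomeruli. Dcn (chr10:97479609-97518143, plus strand) measured 1317, 1448, 553 and 1807 CPM in arterioles and 783, 1289, 416 and 945 CPM in PCV, and these groups overlapped. Whole kidney held 103, 101, 105 and 100.1 CPM, a standard deviation of 2.2% of the mean. Glomeruli held 22.2, 59.9, 26.6 and 26.6 CPM, all below whole kidney. PTC held 19.5, 106, 6.76 and 31.3 CPM, with library 96 at the whole kidney level and the other 3 below it. Dcn rose by 3.64 ± 0.58 in arterioles (adjusted p = 2.61e-05) and by 3.07 ± 0.56 in PCV (adjusted p = 0.00356), and both calls held whichever library was left out. In glomeruli the difference was -1.60 ± 0.53 (adjusted p = 0.0903) and in PTC -1.33 ± 0.53 (adjusted p = 0.298). Dcn was called lower in glomeruli without the count filter (adjusted p = 0.0142) and with only the 8 libraries compared (adjusted p = 0.00452). Without capillary 96, Dcn was called lower in PTC, at -2.42 (adjusted p = 0.046). The column name of that library carries extra letters, WH, whose meaning is not given.

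Lumican behaved otherwise, although Lum (chr10:97565128-97572703, plus strand) lies 46984 bases downstream of Dcn on the same strand. Arterioles 93 and 98 held 31.1 and 97.6 CPM, but arterioles 96 and 100 only 0.805 and 0.357 CPM, from 5 and 2 counts. Venule 96 held 28.7 CPM from 236 counts and the other 3 venular libraries at most 2 counts each. Glomeruli had 3 counts and PTC 6 counts in all 4 libraries together, whereas whole kidney held 1.72, 2.53, 2.95 and 3.40 CPM in every library. Thus Lum was present at a low, even level in whole kidney and either well above or well below it in single microdissected libraries. No comparison passed in the fit of all 20 libraries, with an adjusted p of 0.212 in arterioles and 0.266 in glomeruli. With only the 8 libraries compared, Lum was called lower than whole kidney in glomeruli (-4.98, adjusted p = 0.00547) and in PTC (-3.66, adjusted p = 0.0392). Lum fell below the count filter of the fit without whole kidney. The venular value had no stable sign: without venule 96 it was -3.93.

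Clec3b (chr9:123150946-123157432, plus strand) encodes tetranectin, a plasminogen-binding protein. It measured 214, 0.805, 8.21 and 18.0 CPM in arterioles and 180, 108, 0.371 and 26.1 CPM in PCV. The extremes differed by 266 and 486 times, and arteriole 96 and venule 98 lay below every whole kidney library, which held 2.73, 1.27, 1.78 and 1.98 CPM. Glomeruli had 2, 3, 2 and 3 counts and PTC 1, 0, 2 and 2 counts. The arteriolar call (4.94 ± 1.59, adjusted p = 0.0391) rested on arteriole 93, without which the log2 fold change was 2.17 (adjusted p = 0.286). It was also lost without any one of the whole kidney libraries, at adjusted p-values of 0.0892 to 0.0999. In PCV the difference of 5.33 ± 1.62 had an adjusted p of 0.245, and it passed with DESeq2's test (adjusted p = 0.00338) and with only the 8 libraries compared (adjusted p = 0.0194). That last setting also called Clec3b lower in glomeruli (adjusted p = 0.0183) and in PTC (adjusted p = 0.0164).

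Cygb (chr11:116645595-116654313, minus strand) encodes cytoglobin, a haem protein of fibroblasts and pericytes. It held 647, 585, 275 and 521 CPM in arterioles and 292, 401, 250 and 325 CPM in PCV, which overlapped. Glomeruli held 61.9, 92.5, 48.6 and 87.9 CPM, above each of the whole kidney values of 18.7, 37.1, 24.5 and 26.9 CPM. In PTC the values were 54.7, 73.3, 2.68 and 129 CPM, with 3 libraries above whole kidney and library 98 below it. Unlike Dcn, Lum and Clec3b, Cygb had its lowest group mean in whole kidney, at 26.8 ± 7.7 CPM. It rose by 4.24 ± 0.69 in arterioles (adjusted p = 4.25e-05) and by 3.56 ± 0.67 in PCV (adjusted p = 0.00463). The venular call was lost without whole kidney 93 or 98 (adjusted p up to 0.0572), and the glomerular difference of 1.44 ± 0.62 did not pass (adjusted p = 0.226) except with only the 8 libraries compared (adjusted p = 0.0183).

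Pdgfra (chr5:75152292-75198215, plus strand), the receptor of the group, did not follow the matrix genes. Arterioles held 1.71, 0.644, 21.2 and 100.3 CPM, glomeruli 21.4, 59.8, 58.5 and 84.0 CPM, PTC 14.04, 16.8, 41.0 and 0 CPM, and PCV 40.5, 16.04, 22.6 and 11.1 CPM. Whole kidney held 17.1, 19.2, 22.4 and 17 CPM. All 5 groups overlapped, and glomeruli had the highest mean, at 55.9 ± 25.8 CPM against 18.9 ± 2.5 in whole kidney. No difference passed in the fit of all 20 libraries: it was 0.71 ± 1.32 in arterioles (adjusted p = 0.744), 1.56 ± 1.35 in glomeruli (adjusted p = 0.742), -0.07 ± 1.32 in PTC (adjusted p = 0.994) and 0.25 ± 1.32 in PCV (adjusted p = 1). With only the 8 libraries compared, the glomerular difference of 1.45 passed (adjusted p = 0.0331). The arteriolar, capillary and venular values changed sign when single libraries were left out.

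The order of the levels was tested among the 16 microdissected libraries, where 8 of the 9 genes, all but Lum, passed the count filter. By group means, arterioles were highest and PCV second for 7 of the 9 genes, Clec3b had the reverse order, and Pdgfra was highest in glomeruli. Between arterioles and PCV, the top neighbours, 0 of 8 genes passed an adjusted p under 0.05, against 4.38% of all 12179 genes tested. At an unadjusted p under 0.05 edgeR put Col1a1 and Col8a1 higher in arterioles, and DESeq2 called 1 gene. Col8a1 came closest, at 2.37 ± 0.77 (adjusted p = 0.0679), followed by Col1a1 at 1.36 ± 0.61 (adjusted p = 0.174). Col8a1 passed with DESeq2's size factors, with DESeq2's test and with all 20 libraries in the fit, at adjusted p-values down to 0.0049. For Dcn the difference was 0.57 ± 0.55 and for Cygb 0.67 ± 0.64. The missed threshold does not show that the 2 vessel types were alike.

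Against glomeruli, 7 of 8 genes were higher in arterioles, where the rule took 1.33% of all genes, and against PTC again 7 of 8, where it took 6.22%. Pdgfra was the exception in both. Dcn differed by 5.24 ± 0.66 from glomeruli (adjusted p = 1.11e-06) and by 4.97 ± 0.65 from PTC (adjusted p = 9.12e-07). Col8a1 differed by 8.37 ± 1.01 from PTC (adjusted p = 1.73e-07). Dcn, Col1a1 and Col3a1 kept the call against glomeruli whichever library was left out. Col1a2, Col8a1, Clec3b and Cygb did not: Col8a1 lost it without any one of the 8 libraries, Col1a2 without any except arterioles 93 and 98, Clec3b without arteriole 93 or any glomerular library, and Cygb without glomerular 93, 98 or 100, at adjusted p-values of 0.0543 to 0.174. Against PTC, Clec3b alone lost the call, without arteriole 93 (adjusted p = 0.0583).

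Venules were higher than glomeruli for 4 of 8 genes (Dcn, Col1a1, Col3a1 and Clec3b, background 0.731%) and higher than PTC for 5 of 8 (Dcn, Col1a1, Col1a2, Col8a1 and Clec3b, background 0.328%). Dcn had the smallest p in both, with log2 fold changes of -4.67 ± 0.64 for glomeruli against PCV (adjusted p = 1.04e-05) and -4.40 ± 0.64 for PTC against PCV (adjusted p = 5.07e-05). Against glomeruli only Dcn was called in every fit that left out 1 library. Col1a1 lost the call without glomerular 93, 98 or 100 or venule 93, 96 or 100, and Col3a1 and Clec3b without any glomerular library or without venule 93 or 96 (adjusted p 0.0682 to 0.176). Against PTC, Dcn, Col1a1 and Col8a1 always passed. There Col1a2 lost the call without any library except venule 100 and Clec3b without any except venule 98 (adjusted p 0.0535 to 0.292). With DESeq2's size factors, Col1a1 was not called against glomeruli and Col1a2 and Clec3b were not called against PTC, at adjusted p-values of 0.0548 to 0.0771. Between glomeruli and PTC, the lowest neighbours, Col8a1 alone of the 8 was higher in glomeruli (5.60 ± 0.90, adjusted p = 6.04e-05, background 2.20%), and a second gene passed without capillary 93.

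A compartment marker was a gene higher in 1 compartment than in the mean of the other 3, with at least 10 CPM in each of its 4 libraries. By this rule 6 of the 8 genes were arteriolar markers (4.76% of all genes): Col8a1 at 4.51 ± 0.55, Dcn at 3.60 ± 0.41, Col3a1 at 3.40 ± 0.52, Col1a1 at 3.39 ± 0.44, Cygb at 2.15 ± 0.48 and Col1a2 at 2.05 ± 0.45. Clec3b passed the test but not the minimum level. Dcn was a venular marker as well, at 2.83 ± 0.41 (adjusted p = 7.04e-05), and the only one of the 8, where the rule took 0.230% of all genes. A second venular marker came in without capillary 93 or without venule 98. No gene was a marker of glomeruli (1.48% of all genes) or PTC (3.24%) with edgeR or DESeq2, and edgeR put 0 of 8 higher there at an unadjusted p under 0.05.

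The proportion of the type I collagen chains was compared within libraries, where the scaling between libraries cancels. The reads lie near the 3′ ends of transcripts and were not scaled by length, so the ratio is read between groups and not as the molar proportion of the chains. Counts of Col1a1 to Col1a2 stood at 0.538, 0.522, 0.511 and 0.511 in whole kidney. They stood at 3.81, 1.93, 1.80 and 1.76 in arterioles and at 1.57, 0.910, 0.625 and 3.10 in PCV. Every arteriolar and every venular library thus lay above whole kidney, by 2.08 and 1.31 in the mean log2 ratio. Each difference reached the smallest p that an exact two-sided permutation test of 4 against 4 can give, 0.0286, and neither passed after adjustment over the 9 ratio comparisons made (adjusted p = 0.129). Glomeruli (1.12, 1.46, 0.591 and 0.160) and PTC (1.22, 0.122, 0.779 and 0.43) fell on both sides of whole kidney. Arterioles and PCV differed by 0.77 (exact p = 0.2, adjusted p = 0.386).

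Col3a1 to Col1a1 showed no such step. The mean log2 ratio was -0.72 ± 0.52 (SD, n = 4) in arterioles, -0.94 ± 1.04 in PCV and -0.34 ± 0.27 in whole kidney, and the exact p ranged from 0.286 to 0.8.

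**Figure D4:**
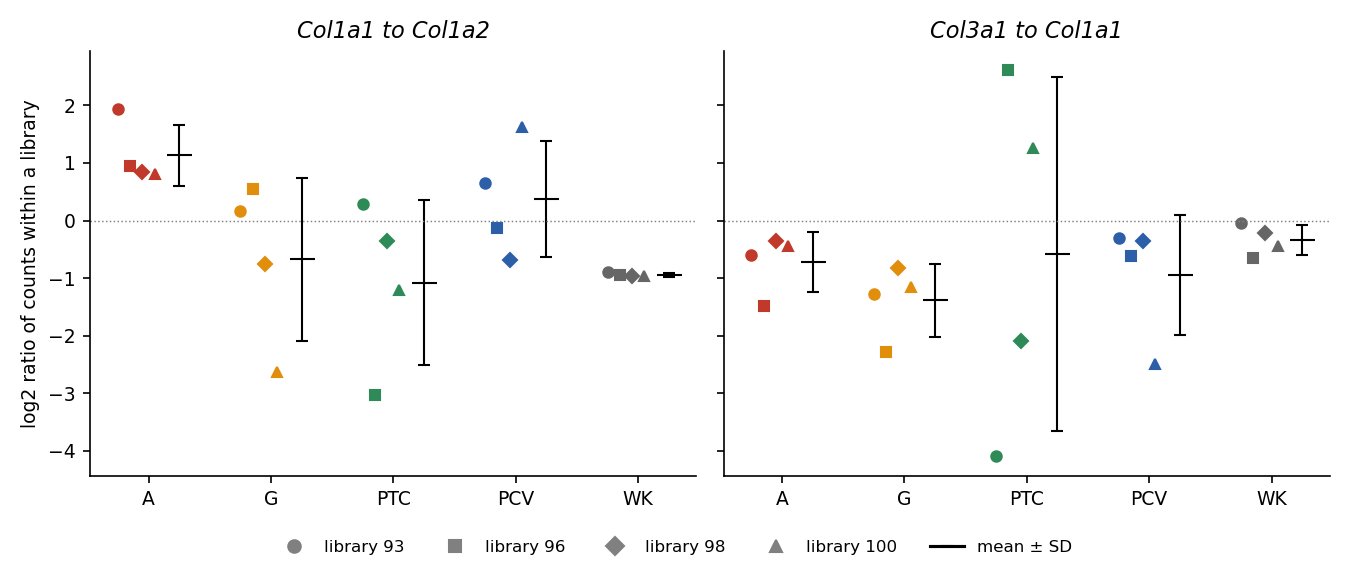
Log2 ratio of counts within each library for Col1a1 to Col1a2 (left) and Col3a1 to Col1a1 (right) in the 5 groups, with the mean and SD of 4 libraries in black. In the left panel whole kidney lies between -0.97 and -0.89 and all arteriolar libraries between 0.81 and 1.93; in the right panel the groups overlap.

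Further genes of fibroblasts and of the collagen pathway were described by counts against whole kidney. For these lists too, the share over all genes tested was 5.78% higher and 5.50% lower in arterioles. In PCV it was 0.203% higher and 0.0217% lower, and in glomeruli 1.59% higher and 1.47% lower. Among 32 other fibroblast and adventitial genes, 28 were tested, of which 13 were higher and 1 lower in arterioles. The strongest by p were Vim, an intermediate filament of mesenchymal and endothelial cells (1612 ± 1184 CPM against 38.8 ± 7.8, adjusted p = 6.56e-08), Fn1, fibronectin (483 ± 471 against 15.8 ± 3.7, adjusted p = 0.000746), Pi16, a marker of adventitial fibroblasts (114 ± 118 against 3.00 ± 1.04, adjusted p = 0.00219), and Serpinf1, which encodes PEDF (141 ± 144 against 1.64 ± 0.62, adjusted p = 0.00343). All 4 arteriolar libraries lay above whole kidney for each. Nt5e, the ecto-5′-nucleotidase of cortical fibroblasts and proximal tubules, was lower, at 1.05 ± 1.48 against 46.0 ± 7.0 CPM (adjusted p = 0.00722). At an unadjusted edgeR p under 0.05, 16 of the 28 were higher and 4 lower, the latter being Nt5e, Scara5, Igfbp6 and Postn. In PCV 0 of the 28 passed in either direction with edgeR, while at an unadjusted p under 0.05 Meg3, Pdgfrb, Vim, Mfap5 and Abca8a were higher and none lower. That count of 0 cannot be set apart from the small share of all genes called in PCV. In glomeruli 4 of the 28, Meg3, Pdgfrb, Pi16 and Vim, were higher and 0 lower. The median log2 fold change of the list was 2.27 in arterioles, 0.07 in glomeruli and 1.07 in PCV.

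Other matrix genes were mostly higher in arterioles where they passed. Of 10 tested interstitial collagens of other types, 3 were higher, the type VI chains Col6a2 (217 ± 128 against 8.47 ± 1.78 CPM, adjusted p = 0.00302), Col6a1 (183 ± 245 against 10.3 ± 3.2, adjusted p = 0.00782) and Col6a3 (203 ± 158 against 19.8 ± 3.0, adjusted p = 0.0138). Of 7 tested small leucine-rich proteoglycans beside Dcn and Lum, 5 were higher. They included biglycan, Bgn (3086 ± 1794 against 139 ± 15 CPM, adjusted p = 3.69e-10), opticin, Optc (311 ± 160 against 1.24 ± 0.63, adjusted p = 2.27e-06), fibromodulin, Fmod (424 ± 242 against 8.56 ± 1.45, adjusted p = 9.10e-05) and Prelp (132 ± 40 against 24.0 ± 4.2, adjusted p = 0.0240). None of either list was lower with edgeR; at an unadjusted p under 0.05, Col5a3 and Col16a1 were. In PCV, Bgn was the only gene of these lists to pass, at 635 ± 243 CPM (adjusted p = 0.00135). It was also the only one to pass in glomeruli. At an unadjusted p under 0.05, Col6a1, Col6a2, Ogn, Fmod and Prelp were higher in PCV and Col12a1 lower.

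Genes that fold, trim and crosslink collagen rose in part. In arterioles 8 of 21 tested were higher and 0 lower, with Loxl3 and P3h4 lower at an unadjusted p under 0.05. Sparc, a collagen-binding matricellular protein, reached 2776 ± 893 against 258 ± 8 CPM (adjusted p = 1.30e-08), Serpinh1, the collagen chaperone HSP47, 490 ± 339 against 40.8 ± 17.8 (adjusted p = 0.000258) and Adamts2, which removes the amino-terminal propeptide, 191 ± 83 against 4.20 ± 0.44 (adjusted p = 0.00265). Plod3, a lysyl hydroxylase, passed as well (228 ± 215 against 20.98 ± 1.01, adjusted p = 0.00510), but 1 of its 4 arteriolar libraries lay below whole kidney. In PCV Sparc alone passed, at 851 ± 309 CPM (adjusted p = 0.00860). Sparc was also the only one of the 21 to pass in glomeruli. Of the ligands for Pdgfra and its relative Pdgfrb, Pdgfa was higher in arterioles (413 ± 126 against 41.9 ± 5.1 CPM, adjusted p = 0.000321), 1 of 4 tested, and 0 of 4 passed in PCV, also at an unadjusted p.

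**Figure D5:**
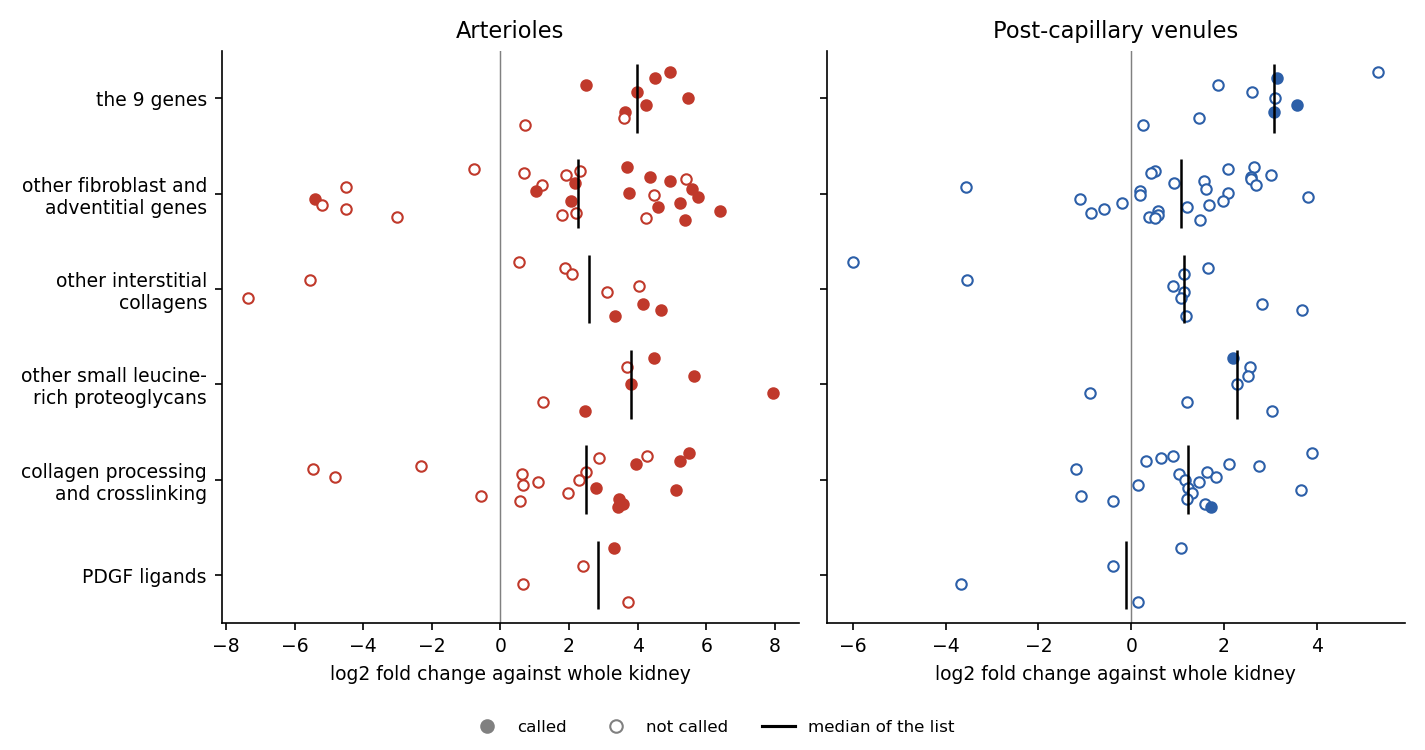
Log2 fold change against whole kidney of every tested gene of 6 lists in arterioles (left) and post-capillary venules (right), with filled points for genes that passed the test and a line at the median of each list. In arterioles the medians lie between 2.27 and 3.97; in venules the 9 genes have the highest median, 3.07, and the PDGF ligands the lowest, -0.12.

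Markers of other cell types moved with these results. In arterioles all 8 smooth muscle markers were higher than in whole kidney, led by Acta2 with a mean of 12564 CPM, as were 7 of 8 pericyte and mesangial markers, whose sum was 0.531% ± 0.085 of the counts against 0.0207% ± 0.0027. The exception, Ren1, was lower. Endothelial markers reached 0.253% ± 0.031 of arteriolar counts and 0.384% ± 0.058 of glomerular ones, well over the 0.0422% ± 0.0025 of whole kidney, with 5 of 8 higher in each. Emcn was lower in arterioles. Pericyte and mesangial markers took 0.247% ± 0.059 in glomeruli, where 5 of 8 were higher, and 0.0461% ± 0.0103 in PCV, where 1 was (Rgs5). In PCV the smooth muscle sum was 0.0979% ± 0.0114 and 3 of its 8 markers passed (Acta2, Myh11 and Myl9). Erythrocyte markers took 2.40% ± 1.29 in arterioles and 3.32% ± 1.30 in PCV, against 0.351% ± 0.091 in whole kidney. Their part in the results was not tested. Nerve and Schwann cell markers took 0.0124% ± 0.0124 in arterioles, ranging from 0.00287% to 0.0293%. Lymphatic markers ranged from 0.000638% to 0.0350% in arterioles, and leukocyte markers took 0.0345% ± 0.0194 against 0.0245% ± 0.0033 in whole kidney. Among the leukocyte markers, Lyz2 was higher and Csf1r lower in arterioles. Of 5 markers of mesothelium and capsule, Msln, Upk3b, Lrrn4 and Krt19 were at 0 in every arteriolar library, and Msln, Upk3b and Lrrn4 in every venular one.

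Across the 20 libraries, the genes differed in how closely they followed each other. As a description, Pearson's r between the log2 CPM of a gene and the mean of the other members was 0.90 for Dcn, 0.88 for Col3a1 and Col1a2, 0.87 for Col1a1, 0.82 for Col8a1, 0.78 for Cygb, 0.72 for Clec3b, 0.42 for Lum and -0.18 for Pdgfra. The libraries share their 5 groups and are not independent points. Among all other genes tested, the 10 closest to the mean of the 9 included Mgp, an inhibitor of calcification (r = 0.89), Adamtsl1, Mfap5, a microfibril component, Fmod, cystatin C (Cst3), Rcn3, the globin gene Hbb-bt, Acta2 and Fbln1, a fibulin (r = 0.85). Mgp measured 7749 ± 2296 CPM in arterioles, 1906 ± 588 in PCV and 257 ± 41 in whole kidney. Adamtsl1 measured 258 ± 98 in arterioles, 57.6 ± 34.3 in PCV and 13.1 ± 3.2 in whole kidney.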

How the data were processed

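Mouse kidney libraries had been prepared with a QuantSeq 3′ mRNA kit, so each transcript was read near its 3′ end. According to the submitters' processing notes and the methods of the study, the authors trimmed reads, aligned them with STAR 2.7 to GRCm38.p6 and counted them per gene with HTSeq 0.13. The notes also list GRCm39; 99.8% of the gene identifiers were found in GENCODE M21, which is on GRCm38, and that annotation gave the gene coordinates. The deposited values are raw counts per gene, whole numbers with no normalization by the authors. Of 168 columns of values, 20 were used and 148 could not be tied to these samples and were not used. Columns were matched to groups by name, and nothing tied a column to a numbered label. The column of capillary library 96 alone carried extra letters (WH) of unstated meaning, and was used as that library.

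Counts were tested with edgeR 4.0.16 (R 4.3.3; quasi-likelihood F test in its older form, TMM, filterByExpr by group, Benjamini-Hochberg adjustment over all genes tested). Compartments were compared with whole kidney in 1 fit of 20 libraries (13813 genes; adjusted p under 0.05 and log2 fold change beyond 1 in size). Pairs of compartments and markers were tested in a fit of the 16 microdissected libraries (12179 genes; adjusted p under 0.05). A standard error is the log2 fold change divided by the square root of F. Ratios were tested on log2 counts with 0.5 added, by exact permutation (scipy 1.17.1). The test functions were tested on simulated data with known changes. Few counts in some groups limit precision for Lum, Clec3b and Col8a1. Arteriole 96, with the highest total of its group (11443164), held 5 counts each of Lum and Clec3b. The cause of their spread was not tested. Reads carry no molecular identifiers used here.

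The members and lists were chosen with earlier results of these data known, and count as descriptions. All 9 members are named with every library, up to 4 genes per other list with the smallest p in arterioles and in venules among those called, up to 2 in the opposite direction, the most abundant marker of other cell types where a single one is given, and the 10 genes most like the members, pseudogenes and unnamed genes passed over. A few named items are not reported here. Genes listed as called only at an unadjusted p, as not overlapping or at 0, and some called markers of other cell types, were named in addition. Alternatives were DESeq2 1.42.0 (Wald test) and its size factors, no count filter, only the 8 libraries compared, all 20 in the fit, no level minimum, a pseudocount of 1, CPM on raw totals, each library left out in turn and, chosen after seeing the data, the column number as a block.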

Additional observations from a re-analysis of the deposited data

Results flagged for a closer look

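Of 45 sets of 4 libraries tested (9 genes in 5 groups), 4 held a library whose gap to its nearest neighbour exceeded Dixon's 95% value relative to the range of the group; chance gives about 1 in 20. Clec3b stood at 214 CPM in arteriole 93, with the next at 18.0 CPM, and the arteriolar call rests on that library. Lum stood at 28.7 CPM in venule 96, with the next at 0.371 CPM. Lum was at 0 in glomerular library 98, where the other 3 held 1 count each, so the gap is a single read. Dcn stood at 59.9 CPM in glomerular 96, with the next at 26.6 CPM, and still below every whole kidney library.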

How the results depend on the processing

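The numbers 93, 96, 98 and 100 recur in all 5 groups, but nothing ties them to the labelled replicates or states that they mark mice. Over 13813 genes, the deviations of same-numbered libraries from their group means had correlations of -0.05 to 0.06 in 40 pairs, none over 0.1. Even so, 14 of 20 libraries were closest to their own number, more than an even spread over the 4 numbers would give. Whether equal numbers mark the same mouse remains unknown. With the number as a replicate block, chosen after seeing the data, the calls fell to 4 for arterioles against glomeruli and 3 for PTC against PCV, 1 gene, Dcn, was lower in glomeruli (adjusted p = 0.0184), Clec3b was not called in arterioles (adjusted p = 0.103), 0 genes were called between arterioles and PCV, and the value of Pdgfra between them was -0.53. Of the tested counts and ratios, those not named here kept their value within 1.5 times under each alternative, and no other direction reversed except when 1 library was left out. DESeq2's size factors raised the median log2 fold change of all genes in arterioles by 0.17, and left 1 of the 9 genes called between arterioles and PCV in place of 0 and 3 between PTC and PCV in place of 5. DESeq2's test called 6 genes higher in PCV and 1 lower in PTC (3 and 0 in the report) and 1 between arterioles and PCV, as did the fit of all 20 libraries. Without a count filter, glomeruli had 0 higher and 1 lower, and PCV had 3 markers in place of 1; without the CPM minimum, or with all 20 libraries, it had 2. With only the 8 libraries compared, glomeruli had 3 higher and 3 lower, PTC 2 lower and PCV 7 higher; in arterioles 6 other collagens and 2 PDGF ligands were higher (3 and 1), and in PCV 4 other fibroblast genes, 3 other collagens, 3 proteoglycans and 5 processing genes (0, 0, 1 and 1). The cause was not tested.

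With each library left out in turn, the genes called ranged from 3 to 6 for arterioles against glomeruli (7 with all), 1 to 2 for glomeruli against PTC, 1 to 4 for glomeruli against PCV, and 3 to 4 for PTC against PCV. Against whole kidney they ranged from 0 to 1 higher in glomeruli, 0 to 1 lower in PTC and 1 to 4 higher in PCV, and venular markers from 1 to 2. Values that had not passed changed sign: Pdgfra from -1.27 to 1.11 in arterioles, -0.88 to 0.34 in PTC and -0.19 to 0.47 in PCV, Lum from -3.93 to 1.87 in PCV, and, between arterioles and PCV, Clec3b from -3.12 to 0.42, Pdgfra from -1.53 to 0.89 and the log2 ratio of Col3a1 to Col1a1 from -0.29 to 0.48. Low counts limit Lum, Clec3b and, in PTC, Col8a1.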
